A study of Zea mays with 2 samples.

Results

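The genes described here encode the enzymes that make starch from ADP-glucose, those that trim its branches, and the carrier that brings ADP-glucose into the plastid. They were found by name, as probe sets paired with a single gene. Its symbol or synonym had to be a classical maize starch gene (sh2, bt1, bt2, wx1, su1, su2, ae1, du1, zpu1, AGP1, AGP2) or a numbered gene of starch synthase, branching enzyme, isoamylase or ADP-glucose pyrophosphorylase (agps). No gene was found under su1 or su2. The rule took 13 genes with 15 probe sets, out of 1108 genes with 1452 probe sets that could be named. All counts over the array are over its 17621 probe sets other than the AFFX controls, called maize probe sets below although 66 of them are reporter sequences (IDs starting with RPTR). A sucrose synthase gene that also goes by ss2, and a gene at another locus that shares the symbol ae1, were left out, the second because its locus is not that of branching enzyme IIb.

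Starch is built from ADP-glucose, which ADP-glucose pyrophosphorylase makes from glucose-1-phosphate and ATP. Starch synthases add the glucose units to growing chains, branching enzymes introduce the branch points of amylopectin, and debranching enzymes remove misplaced branches so that the polymer can crystallize into granules. Maize holds several isoforms of most of these enzymes. Some act chiefly in the endosperm of the kernel, where most of the classical starch mutants were found, and others in leaves, embryos and stems, where starch is a store of shorter duration.

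Stems of the dominant dwarf mutant D11 (genotype D11 mutant) and of the wild type (WT, inbred line Mo17) were sampled at tassel emergence and compared on the Maize Genome Array. D11 arose in a cross of Mo17 with the line HN06 of unknown pedigree and was then backcrossed to each of Mo17, B73 and W22. The background of the D11 plants used for the array, and how many plants gave each RNA sample, are not given in the sources used here, so an effect of D11 and a difference of background cannot be told apart. With 1 array per genotype there is no replicate error, no test was made, and every ratio below describes these 2 arrays.

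The values are MAS 5.0 signals on a linear scale, and a ratio is the D11 signal over the WT signal. The Tag and TrpnX control probe sets are not designed against maize. The brightest of them had 24.7 on the D11 array and 27.6 on the WT array, and a signal no higher than that is called here at the level of the controls. Between the arrays, the 63 bacterial spike controls differed by up to 1.38-fold. Probe sets of the same gene, where both were above the controls, had log2 ratios that differed by a median of 0.24 over 272 pairs of 128 genes, and by 0.62 at the 90th percentile. These values describe the spread between probe sets on these arrays and not that between plants.

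Some starch genes were above the controls in both stems, which is called detected below, and others were at the level of the controls. Of the 13 genes, 9 had a probe set above the controls in both D11 and WT: the pyrophosphorylase genes bt2, AGP2 and Agpsemzm, the starch synthase gene ss1, the branching enzyme genes sbe1 and ae1, and all 3 debranching enzyme genes. The other 4, sh2, bt1, wx1 and du1, had none. Of the 1108 genes that could be named, 851 had a probe set above the controls in both. Counted by probe set, 9 of 15 were above the controls in both arrays, 5 in neither and 1 in D11 alone. Of the 17621 maize probe sets, 12462 were above them in both and 22.4% in neither.

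**Figure D1:**
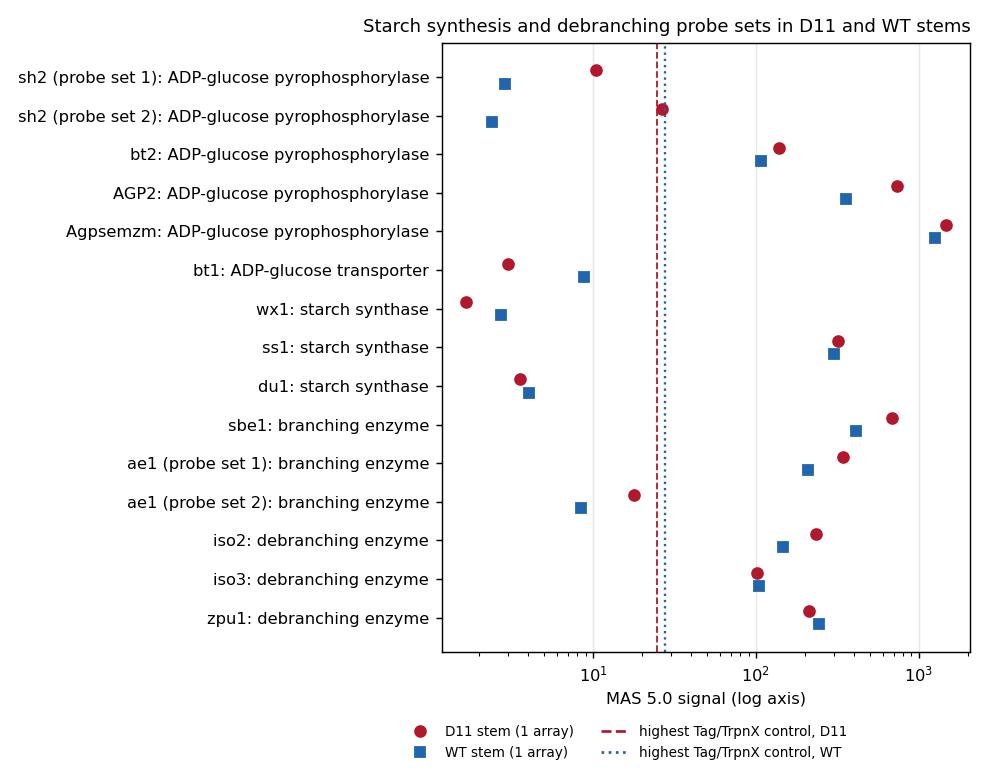
MAS 5.0 signal (log axis) of the 15 starch probe sets, ordered by role, in the D11 stem (circles) and the WT stem (squares), with 1 array per genotype and no error bars. The vertical lines mark the highest Tag or TrpnX control, 24.7 in D11 (dashed) and 27.6 in WT (dotted); both sh2 probe sets, bt1, wx1, du1 and the second ae1 probe set lie at or to the left of the lines in at least 1 array, and the other 9 lie to the right in both.

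ADP-glucose pyrophosphorylase catalyses the committed step of the pathway. AGP2, taken as 1 of its genes by symbol alone, had the highest ratio among the 9 detected starch probe sets. AGP2 (LOC542737, GRMZM2G027955) read 734 in D11 and 357 in WT (ratio 2.05). This was the 1 starch probe set at least 2-fold higher in D11 once signals at the level of the controls were raised to it, and 5.45% of all maize probe sets passed the same threshold. None was at least 2-fold lower, against 3.13% of all. Its log2 ratio, 1.04, lay between 0.83 and 1.04 over the scalings tried, so that it was a little under 2-fold with each of the 4 other scalings.

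The other pyrophosphorylase genes above the controls differed less. Agpsemzm (LOC542072, GRMZM2G106213), named for the small subunit in the embryo, had 1476 in D11 and 1257 in WT (ratio 1.17). The gene bt2 (LOC541902, GRMZM2G068506), for the small subunit of the endosperm enzyme, had 139 in D11 and 108.0 in WT (ratio 1.29). Both ratios were within the 1.38-fold that the spike controls reached.

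The gene sh2 (LOC542761, GRMZM2G429899), for the large subunit of the endosperm enzyme, was at or near the level of the controls. One of its probe sets had 26.5 in D11 and 2.41 in WT, a quotient of 10.99, which was the only quotient of at least 5 among the 15. Of all maize probe sets, 2.26% were at least 5-fold higher on the deposited signals and 2.57% at least 5-fold lower; no starch probe set was at least 5-fold lower. The D11 signal was above the highest control of its own array by a narrow margin and below the highest control of the WT array, and the WT signal was at the level of the controls. No fold change can therefore be given for it. A second sh2 probe set had 10.5 in D11 and 2.88 in WT, at the level of the controls in both stems.

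The carrier gene bt1 (LOC732804, GRMZM2G144081) encodes the transporter that moves ADP-glucose from the cytosol into endosperm amyloplasts. Its probe set had 2.99 in D11 and 8.75 in WT, both at the level of the controls. Like sh2, it belongs to the cytosolic route of the endosperm, and no fold change is given for it. Another probe set of the same transcript cluster, without a gene name in the tables used here, had 36.3 in D11 and 16.9 in WT, at least 1.31-fold higher in D11, and whether it reads bt1 was not tested. The partner of sh2 in that enzyme, bt2, had a signal above the controls in both.

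Of the starch synthase genes taken by the rule, 1 of 3 was detected. The gene ss1 (LOC541669, GRMZM2G129451), for a soluble starch synthase that extends short chains of amylopectin, had 319 in D11 and 301 in WT (ratio 1.06). Its direction was not stable, with log2 ratios from -0.12 to 0.08 over the scalings. The gene wx1 (LOC541854, GRMZM2G024993), for the granule-bound synthase that makes amylose in endosperm and pollen, had 1.66 in D11 and 2.74 in WT. The gene du1 (LOC541657, GRMZM2G141399), for another soluble synthase, had 3.54 in D11 and 4.02 in WT. Both of these were at the level of the controls.

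Both branching enzyme genes were higher in D11, by nearly the same ratio. The gene sbe1 (LOC542315, GRMZM2G088737), for branching enzyme I, had 682 in D11 and 411 in WT (ratio 1.66). The gene ae1 (LOC542238, GRMZM2G032628), for branching enzyme IIb, had 340.2 in D11 and 209.6 in WT by its brighter probe set (ratio 1.62). Each ratio was above the largest spike control ratio, and each log2 ratio (0.73 for sbe1 and 0.70 for ae1) was above the 0.62 by which probe sets of the same gene differed at the 90th percentile. With centring on the median the log2 ratios were 0.53 for sbe1 and 0.49 for ae1, below that value, and ae1 was also below it with quantile normalization (0.53) and lowess centring (0.56). The value of 0.62 was computed on the deposited signals only. It is a difference between log2 ratios of the same gene and gives no cut-off for a single ratio. The dimmer ae1 probe set had 17.8 in D11 and 8.41 in WT, at the level of the controls, so it cannot serve as a second measurement. The ratio of ae1 thus rests on the brighter probe set alone. Whether that signal comes from ae1 was not tested.

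The 3 debranching enzyme genes taken by the rule were all detected and did not go the same way. The gene iso2 (LOC542679, GRMZM2G090905), for an isoamylase subunit without catalytic activity of its own, had 234 in D11 and 147 in WT (ratio 1.59). The gene iso3 (LOC542095, GRMZM2G150796), for an isoamylase known from Arabidopsis to act in starch breakdown, had 101.3 in D11 and 103.8 in WT. The gene zpu1 (LOC541711, GRMZM2G158043), for the pullulanase-type enzyme, had 213 in D11 and 243 in WT, a log2 ratio of -0.19. On the deposited signals, the ratios of iso3 and zpu1 were within the spread of the spike controls, whereas that of iso2 was outside it. With centring on the median the log2 ratio of iso2 was 0.47, but the spread of the spike controls was not computed for that scaling.

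**Figure D2:**
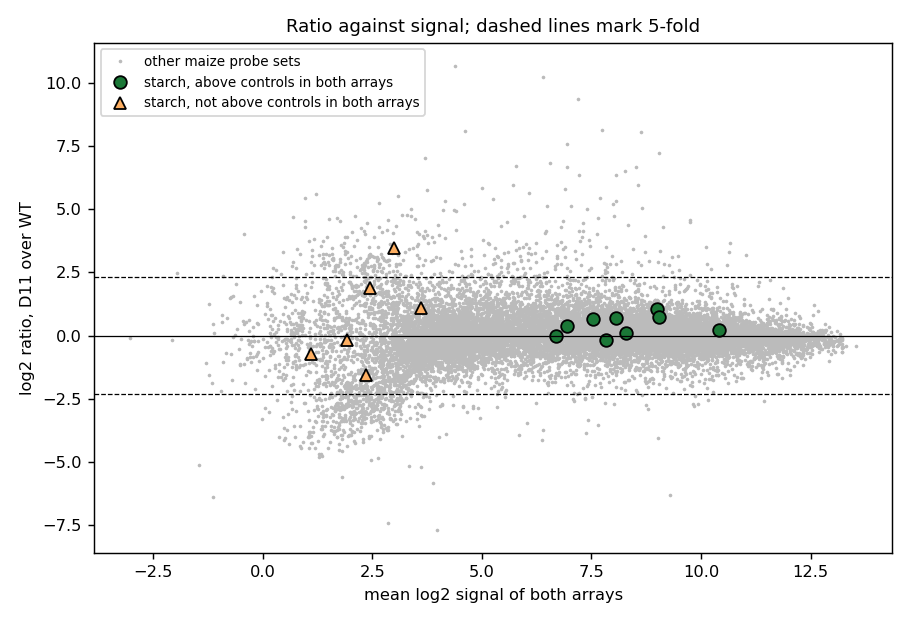
Log2 ratio of D11 over WT against the mean log2 signal of both arrays for 17621 maize probe sets (grey), with the 9 starch probe sets above the controls in both arrays (circles) and the other 6 (triangles). The dashed lines mark 5-fold; ratios of weak signals spread widely on both sides, and the single starch probe set past a dashed line, sh2, is among the weak ones.

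Seen over the 9 detected probe sets, 7 had a higher signal in D11 and 2 a lower one, while 55.0% of the 12462 maize probe sets above the controls in both arrays were higher in D11. The median log2 ratio of the 9 was 0.36, and that of the 12462 was 0.06. At least 1.5-fold higher were 4 of the 9 (AGP2, sbe1, ae1 and iso2), a size reached by 15.7% of the 12462. None of the 9 was at least 1.5-fold lower, against 10.6%. At 2-fold, 1 of the 9 was higher, against 6.2% of the 12462, and none was lower, against 3.95%. Over all 15 probe sets the median was also 0.36, beside 0.03 for all maize probe sets. With signals raised to the level of the controls it was -0.035, beside -0.12 for all. That level differs between the arrays, so a probe set at or below it in both then has a log2 ratio of -0.16 by construction. The lower median therefore says nothing about those probe sets.

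The count of 4 depended on how the arrays were scaled, because 3 of these ratios lay close to 1.5. Centring each array on its median moved the median log2 ratio of all maize probe sets by -0.20 and left 1 of 9, AGP2, at least 1.5-fold higher. Quantile normalization left 2 of 9, against 11.4% of all detected maize probe sets, and lowess centring left 2 of 9, against 12.7%. The split of all detected probe sets moved as well: with centring on the median, 9.62% were at least 1.5-fold higher and 18.6% at least 1.5-fold lower. Relative to these, the median of the 9 stayed higher, at 0.16 against -0.15 for all with centring on the median, 0.23 against -0.03 with quantile normalization and 0.26 against 0.01 with lowess centring. AGP2, sbe1, ae1, iso2, bt2 and Agpsemzm were higher in D11 with every scaling tried, zpu1 and iso3 were lower with every one, and ss1 changed sides.

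**Figure D3:**
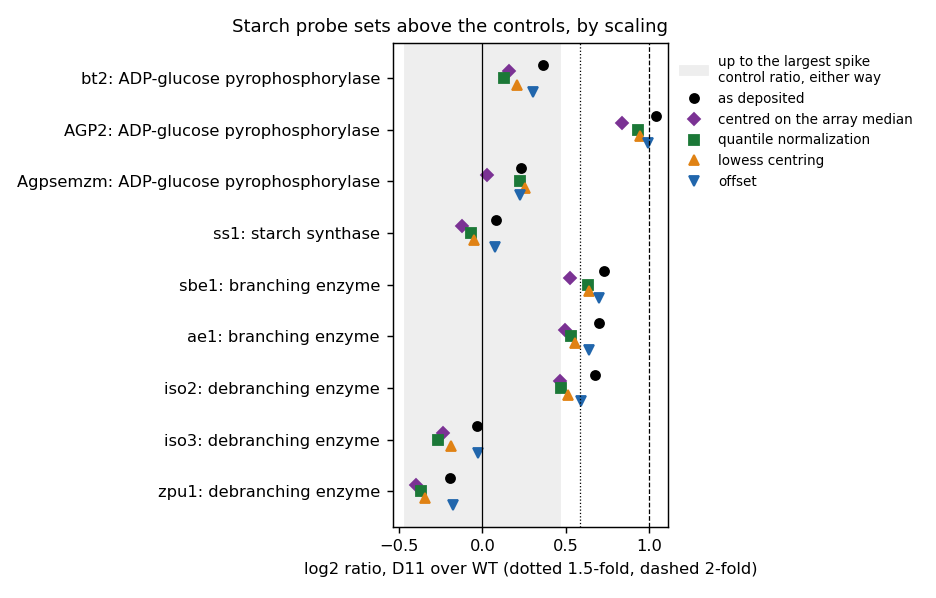
Log2 ratio of D11 over WT for the 9 starch probe sets above the controls in both arrays, as deposited and under 4 other scalings (1 array per genotype). The grey band spans the largest ratio of the spike controls, 1.38-fold, in either direction, computed on the deposited signals only. AGP2 lies furthest to the right at 0.83 to 1.04, sbe1, ae1 and iso2 lie between 0.47 and 0.73, and the others lie inside the band.

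A further 5 starch synthesis genes are on the array under names the rule did not take, and they were added after their values were seen. GLG1 (GRMZM2G163437), also listed as agpsl1, a pyrophosphorylase gene, had 768 in D11 and 432 in WT (ratio 1.78). The soluble starch synthase gene zSSIIb had 108.6 in D11 and 62.7 in WT (ratio 1.73). GBSSIIa, for a granule-bound synthase other than wx1, had 213 in D11 and 170.5 in WT (ratio 1.25), and the pyrophosphorylase gene AGPLS3 had 79.3 in D11 and 76.7 in WT. The gene zSSIIa, at the sugary2 locus, had 1.53 in D11 and 10.3 in WT, at the level of the controls in both. With these genes, 11 of 13 detected starch synthesis and debranching probe sets were higher in D11 and 6 of 13 were at least 1.5-fold higher, against the 55.0% and 15.7% of all detected maize probe sets given above. The first count was 9 with centring on the median, quantile normalization and lowess centring, where 38.0%, 47.4% and 50.5% of all were higher. The second was 3 with centring on the median, 3 with quantile normalization and 4 with lowess centring. Of all, 9.62%, 11.4% and 12.7% were then at least 1.5-fold higher.

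Detection can be set out by enzyme step. Among the pyrophosphorylase genes, the detected ones were AGP2, GLG1, Agpsemzm, bt2 and AGPLS3, and the one at or near the level of the controls was sh2. Among the synthase genes, ss1, zSSIIb and GBSSIIa were detected, and wx1, du1 and zSSIIa were not. A signal at the level of the controls gives no more than an upper limit of what that probe set read. For wx1, 2 more probe sets of the same transcript cluster, which have no gene name in the tables used here, had 634 and 254.7 in D11 and 572 and 239.2 in WT. Whether they read wx1 was not tested.

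Kernel tissue is not a labelled part of these samples, and all but 1 of its named marker probe sets were at the level of the controls. All 9 probe sets of the endosperm list (the regulators o2 and pbf1 and the storage protein genes fl2 and dzs18) had signals between 0.54 and 16.5 in D11 and between 3.59 and 21.2 in WT. Their sum was 58.8 in D11 and 77.8 in WT. In a wider list of 14 zein probe sets, added after the values were seen, 13 were at the level of the controls and 1 probe set of gz27, a gamma-zein gene, had 1245 in D11 and 686 in WT. The other gz27 probe sets were at the level of the controls. Whether that signal comes from gz27 was not tested. An unnamed probe set in the transcript cluster of the zein gene z1C1_4 was also above the controls in both arrays, with a log2 ratio of 0.49. The other unnamed probe sets of that cluster were not, and whether it reads a zein gene was not tested.

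Most markers of green tissue were above the controls in both stems, at widely differing signals. Of 21 probe sets taken by symbol for photosynthetic proteins, 18 were above the controls in both arrays, beside 12462 of all 17621. Signals on the list ran from 4.71 to 7115 in D11 and from 2.95 to 7013 in WT. Their sum, 39503 in D11 and 39010 in WT, rests mainly on the brightest probe sets. The list also took in pep7 (LOC542479, 455 in D11 and 318 in WT), a phosphoenolpyruvate carboxylase gene other than the C4 gene pep1. Of the 18 detected probe sets, 8 were higher in D11, pep7 among them, and 10 lower. Their median log2 ratio was -0.12. For all detected maize probe sets, the share higher in D11 was 55.0% and the median 0.06. The split was 5 and 13 with centring on the median, where 38.0% of all were higher. It was 9 and 9 with quantile normalization or lowess centring, where 47.4% and 50.5% of all were higher. The photosystem I gene psan1 (LOC542605) had 4030 in D11 and 2742 in WT, 1.47-fold higher in D11. The photoprotective protein gene psbs1 (LOC542126) had 524 in D11 and 1251 in WT, 2.39-fold lower in D11. PPDK (LOC542759), the pyruvate phosphate dikinase of C4 photosynthesis, was lower in D11 by its 4 detected probe sets, between 2.15-fold (116 in D11 and 249 in WT) and 1.23-fold (388 in D11 and 476 in WT). The gene of C4 phosphoenolpyruvate carboxylase, pep1 (LOC542372), had 13.4 in D11, at the level of the controls, and 47.5 in WT, at least 1.92-fold lower in D11. A bulk stem sample cannot tell fewer cells of a type from less RNA per cell, and what part green tissue had in the starch ratios was not tested.

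Sucrose, the sugar that arrives in the stem, is split by sucrose synthases and invertases and converted to hexose phosphates before ADP-glucose is made. Of 13 probe sets for these steps, 9 were above the controls in both arrays, of which 3 were higher in D11 and 6 lower, with a median log2 ratio of -0.29. Of all detected maize probe sets, 55.0% were higher in D11, with a median of 0.06. The split of 3 and 6 was the same under each scaling, and 2 of the 6 belong to the same gene, sh1. That share of 55.0% became 38.0% with centring on the median, 47.4% with quantile normalization and 50.5% with lowess centring. The fructokinase gene frk2 (LOC542108) had 4566 in D11 and 7316 in WT, 1.60-fold lower in D11, and frk1 (LOC542107) had 739 in D11 and 1074 in WT, 1.45-fold lower. The sucrose synthase gene sh1 (LOC542365) had 1953 in D11 and 2767 in WT by its brightest probe set, 1.42-fold lower. The cell wall invertase gene incw1 (LOC542314) had 420.5 in D11 and 271.7 in WT, 1.55-fold higher. The endosperm invertase gene mn1, like sh2, gave a large quotient from signals at the level of the controls, with 16.6 in D11 and 1.78 in WT.

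**Figure D4:**
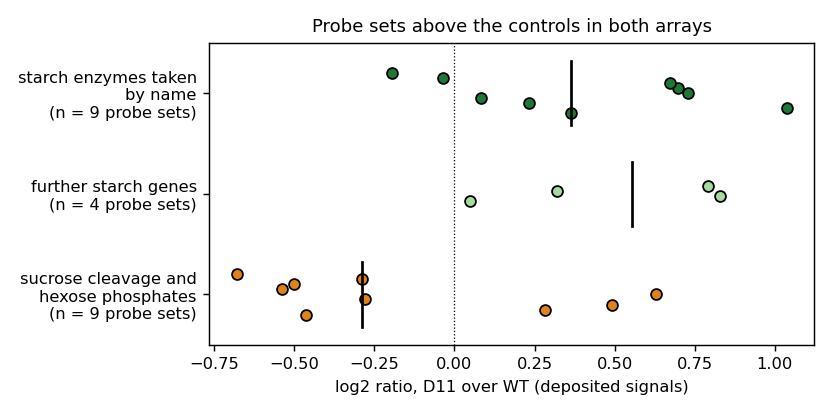
Log2 ratio of D11 over WT (deposited signals, 1 array per genotype) of each probe set above the controls in both arrays, for 9 starch probe sets taken by name, 4 probe sets of further starch genes and 9 probe sets of sucrose cleavage and hexose phosphate genes. Black bars mark the medians, 0.36, 0.56 and -0.29; the points of the starch and the sucrose genes overlap.

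For starch breakdown, the list held a single probe set. It belongs to the beta-amylase gene BMY1 (LOC542472), whose product releases maltose from starch chains. Its signal was 24.4 in D11, at the level of the controls, and 62.2 in WT, which is at least 2.52-fold lower in D11 with the highest D11 control as the floor. Another probe set, which the supplementary gene list of the paper annotates as a beta-amylase and which was picked there for its fold change, had 35.5 in D11 and 3.21 in WT. Its lower bound was 1.29-fold higher in D11, so the pair of beta-amylase probe sets stood on opposite sides. Both lie near the level of the controls in at least 1 stem.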

How the data were processed

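Stem RNA of D11 and WT was hybridized to the Affymetrix Maize Genome Array, 1 array per genotype. The authors deposited intensity values made with the MAS 5.0 algorithm, which corrects background, summarizes each probe set and scales each array. According to the methods this was done in GeneSpring. In the submitters' processing notes, Affymetrix Expression Console is given beside MAS5. Precision is limited by the number of arrays.

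The table held 17734 probe sets, of which 113 were controls. Ratios were D11 over WT on the deposited intensity, counted at 5-fold, the threshold of the methods, and at 2-fold after signals under the highest of 23 Tag and TrpnX controls of an array were raised to it. Lists were described by counts and medians beside those of all maize probe sets. Gene names came from the platform annotation and from RefSeq gene symbols and synonyms (RefSeq assembly: Zm-B73-REFERENCE-NAM-5.0), whose coordinates were not used. Gene descriptions were not used here, so lists rest on symbols. Of the maize probe sets, 1452 had 1 gene, 1 had several and 16168 had none.

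Every member is named. Of each other list, up to 4 probe sets with the largest log2 ratios after flooring, among those above the controls in at least 1 array, were chosen. The genes mn1, psan1 and pep7 were named in addition after their values were seen. A phototropin, pyruvate dehydrogenase kinases and a protein kinase were left out of the lists by name. The members, lists and thresholds were chosen with earlier results of these data known. The alternatives were centring on the array median, quantile normalization, lowess centring (span 0.3), adding 24.7 (percentile 25 of all maize signals) to every signal, the control floor, filters on signal, other thresholds, and each gene counted once. Adding 5 further starch genes was chosen after seeing the data. The counting steps were tested on simulated data. Python 3.11.15, numpy 2.4.6, pandas 2.3.3, statsmodels 0.14.6 and matplotlib 3.10.9 were used.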

Additional observations from a re-analysis of the deposited data

How the results depend on the processing

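Some of these results depend on how weak signals were treated, and others on how the arrays were scaled. The 1 starch probe set at least 5-fold higher, sh2, fell to a count of 0 with the offset, with the control floor, and when a probe set had to pass the array median in 1 array, or the controls in both. With the floor its log2 ratio was -0.060, against 3.46 on the deposited signals. The sign reversed because the WT signal was raised to the WT floor of 27.6, above the D11 signal of 26.5. At a threshold of 2-fold, or at 2-fold with no floor, 4 were higher and 1 lower. Of all 17621 maize probe sets, 1750 were then higher and 1733 lower. Among those starch probe sets, AGP2 alone was above the controls in both arrays. With the 5 further genes 1 was at least 5-fold lower, zSSIIa, from signals at the level of the controls. The 1 probe set at least 2-fold higher with the floor, AGP2, fell to 0 with lowess centring, quantile normalization, centring on the median, the offset and a 3-fold threshold. At 1.5-fold with the floor 4 passed, and 2283 of all 17621 maize probe sets did so. The median log2 ratio of 0.36 was 0.16 with centring on the median, -0.035 with the control floor, and 0.67 over the 7 probe sets that passed the array median in 1 or both arrays. By construction, fewer probe sets enter under the signal minima. No paired analysis was possible because each genotype has 1 array, and for the same reason no array could be left out.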
